A study of Mus musculus with 27 samples.

Results

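Genes for 9 transcription factors that pattern the skull and face were followed through osteoblast differentiation in mouse calvarial cells. They are Msx1, Msx2, Twist1, Twist2, Alx4, Prrx1, Prrx2, Tfap2a and Zic1, chosen by name, and they make 9 of the 37991 genes measured. Calvarial cells of neonatal C57BL/6J-Col3.6 CFP mice, 5 to 9 days old, were sorted for cyan fluorescent protein, which in these animals is driven by the Col3.6 collagen promoter. The sorted cells were then grown in ascorbic acid and beta-glycerol phosphate, and RNA was taken on 9 days, every other day from day 2 to day 18. All samples share this strain, transgene, sort and medium, and time is the variable that the labels give. The authors describe triplicate samples for each day. The 3 profiles of a day carry 1 barcode and differ in sequencing lane, so they were summed to 1 library per day. The spread over the profiles of a day therefore covers sequencing and quantification only, and p-values measure the scatter between the 9 libraries around a trend. How many animals were pooled is not given in the sources used here.

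The roof of the skull forms directly as bone, from mesenchyme that comes partly from the cranial neural crest and partly from the mesoderm. MSX homeodomain proteins act downstream of bone morphogenetic protein (BMP) signals, and TWIST basic helix-loop-helix proteins pair with E proteins and restrain the osteoblast factor RUNX2. ALX4 and the PRRX proteins carry paired-type homeodomains, AP-2 alpha (the product of Tfap2a) marks early neural crest and surface ectoderm, and ZIC1 is a zinc finger protein of neural and cranial mesenchymal development. Mutations in the human counterparts of MSX2, TWIST1, ALX4 and ZIC1 disturb the closure of the skull sutures or the ossification of the skull roof.

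Among the 9 genes, Msx2 fell steeply, and the other 8 had fitted changes within 0.5 log2 from day 2 to day 18, none of which passed the line in day. On day 2 Msx2 stood at 129.9 TPM, a share of all transcripts per unit of length, scaled here by the upper quartile of each profile. By day 18 it was at 12.9 TPM, 10.0-fold lower. Its paralog Msx1 lay between 11.3 and 14.5 TPM throughout. Prrx1 stood above the others on every day at 641 to 926 TPM, and Tfap2a stayed below 1 TPM on all 9 days. Along a straight line in day (edgeR quasi-likelihood test, adjusted p under 0.05 over 15659 genes), 1 of the 9 genes passed, against 54.3% of all genes tested. That gene was Msx2, in the falling direction, which 26.1% of all genes tested took.

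Msx1 and Msx2 are close relatives, as are the Twist and the Prrx genes. The longest run that the transcripts of Msx1 and Msx2 share without a mismatch is 22 bases. Among the estimated counts of Msx1, 27 of 27 profiles held exactly whole numbers as written in the files, with no tolerance, and 25 of 27 did for Msx2. The longest shared runs are 23 bases for Twist1 and Twist2 and 19 bases for Prrx1 and Prrx2. Counts of those 4 genes were whole numbers in 27 of 27 profiles each.

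The promoters of the Msx pair are shown because one gene fell and the other did not pass the test. The windows run from 250 bases before to 50 bases after the start of the RefSeq gene on GRCm38.p6, which is a later build than that of the counts. They cover chr5:37824536-37824835 for Msx1 and chr13:53472731-53473030 for Msx2, both on the minus strand. Capitals mark matches to CANNTG, the E-box bound by helix-loop-helix proteins such as TWIST, and to TAATTA, a homeodomain motif, searched on both strands.
Msx1 promoter: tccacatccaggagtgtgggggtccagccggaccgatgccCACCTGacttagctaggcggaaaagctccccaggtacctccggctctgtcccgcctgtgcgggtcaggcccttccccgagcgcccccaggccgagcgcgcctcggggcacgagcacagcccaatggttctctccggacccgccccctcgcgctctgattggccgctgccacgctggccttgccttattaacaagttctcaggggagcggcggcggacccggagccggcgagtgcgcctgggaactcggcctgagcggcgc
Msx2 promoter: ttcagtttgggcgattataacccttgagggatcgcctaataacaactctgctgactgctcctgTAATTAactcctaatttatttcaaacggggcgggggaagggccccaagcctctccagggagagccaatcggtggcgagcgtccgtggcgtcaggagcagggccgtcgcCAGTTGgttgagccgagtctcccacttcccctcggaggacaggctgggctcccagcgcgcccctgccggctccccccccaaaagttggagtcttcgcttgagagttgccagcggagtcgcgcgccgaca
Each window holds 1 CANNTG match, a motif found in 72.3% of 32851 promoters of this length, and the Msx2 window also holds 1 TAATTA match, found in 5.29%. TAATTA was also present in the Prrx1 window and in a Tfap2a window. These matches describe the letters only, and any part of theirs in the course of a gene was not tested. Promoters of 8 of the 9 genes were matched in the RefSeq table, and Alx4 was not.

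Msx2 (ENSMUSG00000021469, chr13:53562250-53568443 on NCBIM37) encodes a factor whose gain and whose loss both alter the growth of the skull roof. Its level was 129.9, 102, 94.4 and 54.4 TPM on days 2, 4, 6 and 8, then 19.5, 16.3, 13.4, 12.9 and 12.9 TPM on days 10, 12, 14, 16 and 18. The first 4 libraries lay above the last 5, a split read off these values, and its share over all genes was not computed. Between days 8 and 10 the scaled CPM (counts relative to the library total, with no length) fell by 1.42 on the log2 scale, the steepest step of the course, and on day 10 the TPM was 6.66-fold below that of day 2. From day 14 on the step from one library to the next was at most 0.08 on that scale. Over the profiles of a day the SD was at most 3.97 TPM. The counts behind these values ran from 642 reads on day 10 to 8232 reads on day 2.

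The straight line gave Msx2 a log2 change of -3.99 from day 2 to day 18 (SE 0.41, edgeR adjusted p = 5.71e-05). As the gene levelled off, the line overstated the difference of the end points, and the smooth curve (natural spline with 3 degrees of freedom) gave -3.31 (adjusted p = 3.83e-08). Of the 15659 genes tested, 168 had a lower fitted change. The call held in 22 of 22 alternative settings. Lines in day gave log2 changes from -4.57 (without day 18) to -3.85 (without day 6). The setting that compared days 2 to 6 with days 14 to 18 as groups gave -3.13.

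**Figure D1:**
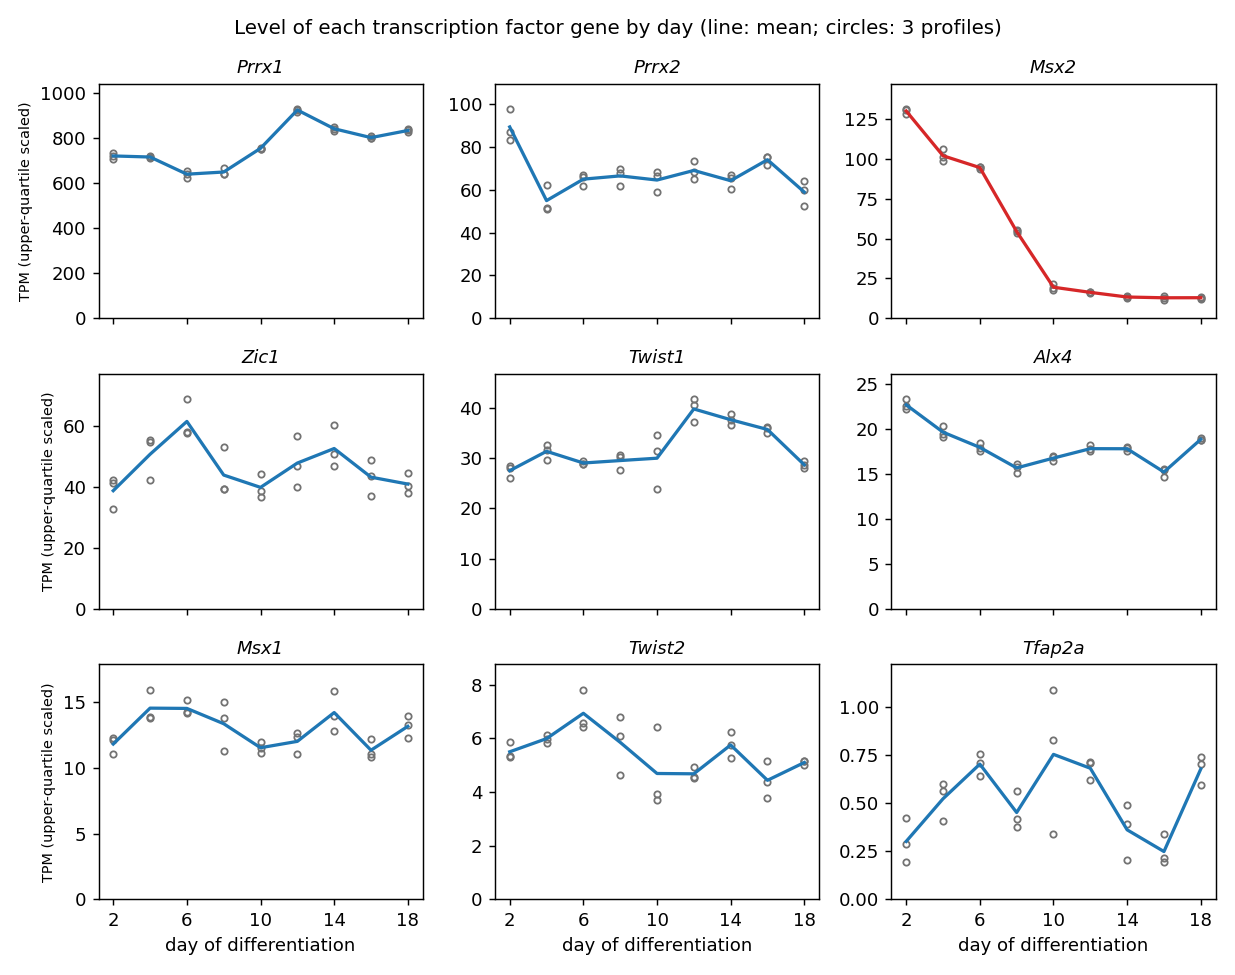
Level of each of the 9 genes in TPM (vertical axes, each from 0, upper-quartile scaled) against day of differentiation, with the mean of the 3 profiles as a line and each profile as a circle. Msx2, in red, went from 129.9 to 12.9 TPM, while Msx1 stayed between 11.3 and 14.5 TPM and Prrx1 between 641 and 926 TPM.

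Msx1 (ENSMUSG00000048450, chr5:38211724-38215822), needed for the palate and teeth, read 11.8, 14.5, 14.5, 13.4, 11.5, 12.0, 14.2, 11.3 and 13.2 TPM over the 9 days in order. No day stood apart from its neighbours by more than 0.35 log2 in scaled counts. The fitted log2 change of Msx1 was -0.18 (SE 0.16, edgeR adjusted p = 0.368), and the smooth curve did not pass either (adjusted p = 0.555). Its highest day was 1.28 times its lowest, a smaller ratio than in all but 4.40% of the 13360 genes with at least 1 TPM.

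The pair of Msx genes thus went from a strong excess of Msx2 to similar levels. The ratio of Msx1 to Msx2 in TPM was 0.0909, 0.245 and 0.591 on days 2, 8 and 10. By days 14, 16 and 18 it had reached 1.06, 0.879 and 1.02. The log2 ratio of counts rose by 3.86 from day 2 to day 18 (SE 0.46, exact two-sided permutation over 9 days p = 5.51e-05, adjusted over 3 pairs p = 0.000165). A ratio within a library does not depend on how libraries are scaled. Across 15 alternatives the change was 3.71 to 4.33, past the threshold in each.

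**Figure D2:**
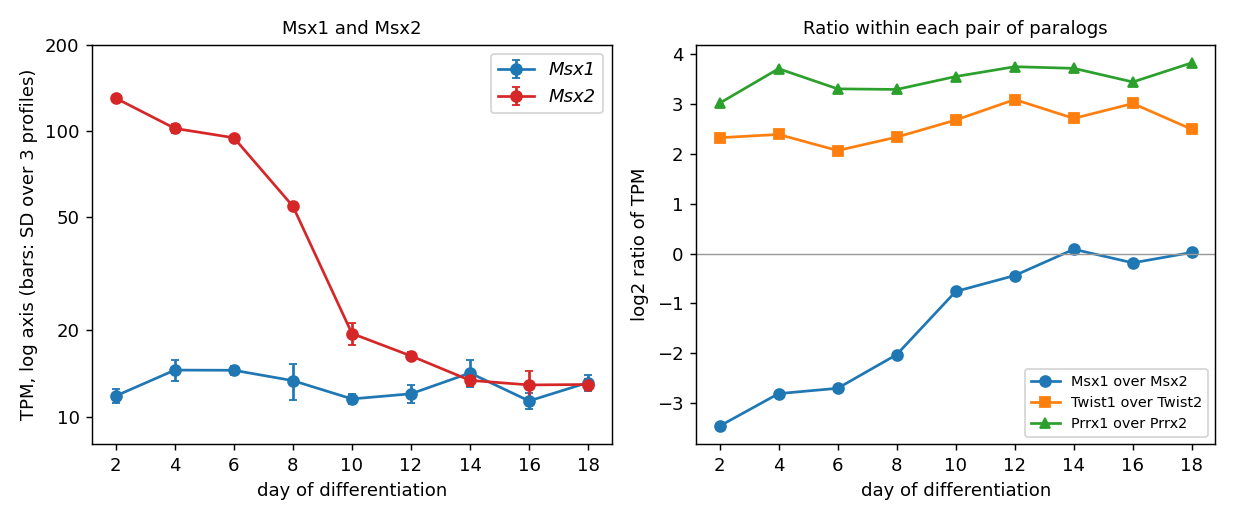
Left, Msx1 and Msx2 in TPM on a log axis against day, with bars for the SD over 3 profiles. Right, log2 ratio of TPM within the pairs Msx1 over Msx2, Twist1 over Twist2 and Prrx1 over Prrx2, where 0 means equal levels: the Msx pair climbed to near 0, and the other pairs stayed above 2.

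Twist1 (ENSMUSG00000035799, chr12:34642536-34644682), whose loss of 1 copy fuses the coronal suture in humans, read 27.5, 31.4, 29.0, 29.5 and 30.0 TPM on days 2 to 10. It then read 39.8, 37.7 and 35.7 TPM on days 12, 14 and 16, above each of the earlier days, and 28.7 TPM on day 18. The straight line did not pass (log2 change 0.18, SE 0.16, edgeR adjusted p = 0.367), and without day 18 its change was 0.39 (adjusted p = 0.0512). The smooth curve passed (adjusted p = 0.0331), but the call was lost with TMM factors (adjusted p = 0.0502) and without day 12 (adjusted p = 0.160). The curve's call held in 6 of 17 alternative settings, including those that count the lanes of a library as replicates. On day 10, the shallowest library, the SD over profiles reached 5.54 TPM.

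Twist2 (ENSMUSG00000007805, chr1:93698038-93744605), known for its part in skin and facial mesenchyme, was the lower of the pair on every day. It read 5.50, 5.99, 6.93, 5.85, 4.69, 4.68, 5.75, 4.43 and 5.10 TPM in order of day, on 74 to 213 reads per library. Neither the line (log2 change -0.44, SE 0.23, edgeR adjusted p = 0.134) nor the smooth curve (adjusted p = 0.327) passed. Twist1 exceeded Twist2 by 4.19-fold on day 6 and 8.51-fold on day 12. The log2 ratio of the pair changed by 0.61 from day 2 to day 18 (SE 0.29, exact two-sided permutation adjusted p = 0.0765 over 3 pairs). Without day 18 the change was 0.94 and passed (exact permutation, adjusted p = 0.0317).

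Prrx1 (ENSMUSG00000026586, chr1:165175247-165243841), a factor of early limb and craniofacial mesenchyme, had the highest level of the 9, above 99.5% of the genes with a mean TPM over 0. It read 722, 717, 641, 651, 756, 926, 843, 804 and 835 TPM in order of day. The 4 earliest libraries thus lay below the 5 later ones, a split also read off the values, with no share over all genes computed. The line gave 0.26 log2 (SE 0.14, edgeR adjusted p = 0.136). The smooth curve passed (adjusted p = 0.0347), but not with TMM factors (adjusted p = 0.0548) or without day 6 (adjusted p = 0.258). The curve's call held in 6 of 17 alternative settings, again including those that count the lanes of a library as replicates. Of the TPM summed over the 9 genes, Prrx1 made up 68.9% on day 2 and 82.3% on day 18, while the share of Msx2 went from 12.4% to 1.28%.

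Prrx2 (ENSMUSG00000039476, chr2:30690492-30736761), which overlaps with Prrx1 in function, read 89.3 TPM on day 2 and between 54.9 and 74.0 TPM on the 8 later days. Day 2 therefore stood above all others, with an SD of 7.55 TPM over its profiles. The line did not pass (log2 change -0.28, SE 0.19, edgeR adjusted p = 0.252), and without day 2 the fitted change was 0.04. Prrx1 exceeded Prrx2 by 8.09-fold on day 2 and 14.2-fold on day 18. The log2 ratio changed by 0.51 (SE 0.21, exact two-sided permutation adjusted p = 0.0759 over 3 pairs), and it depended on the days used, being 0.72 without day 4 (exact permutation, adjusted p = 0.00472), 0.34 without day 2 (exact permutation, adjusted p = 0.217) and 0.16 without days 2 and 18 (exact permutation, adjusted p = 0.590).

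Alx4 (ENSMUSG00000040310, chr2:93482541-93521496), whose loss leaves openings in the parietal bones, started at 22.7 TPM on day 2. It read 19.7, 18.0, 15.7 and 16.8 TPM on days 4, 6, 8 and 10, and 17.8, 17.8, 15.2 and 18.9 TPM on days 12, 14, 16 and 18. The profiles of a day lay close together, with an SD of at most 0.589 TPM. The smooth curve passed (edgeR adjusted p = 0.0186), and the line did not (log2 change -0.37, SE 0.15, adjusted p = 0.0665). The curve's call rests on the first library: it held in 16 of 17 alternative settings and was lost without day 2 (adjusted p = 0.543).

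Zic1 (ENSMUSG00000032368, chr9:91252896-91260648) read 38.7, 50.7, 61.4, 43.9 and 39.8 TPM on days 2 to 10 and 47.8, 52.6, 43.2 and 40.9 TPM on days 12 to 18. The SD over the profiles of a day was up to 8.47 TPM, wide beside the differences between days. RSEM's average transcript length for Zic1 went from 2439 to 4160 bases between profiles, and over the 27 profiles its TPM had a correlation of -0.85 with that length. In scaled CPM, which uses no length, the highest day was 1.27 times the lowest, against 1.59 in TPM. Neither the line (log2 change -0.15, SE 0.14, edgeR adjusted p = 0.398) nor the curve (adjusted p = 0.0718) passed. The span of Zic1, introns included, overlaps that of Zic4 by 3398 bases on the other strand. How far their exons overlap was not tested. Without strand in the counting, reads that fit transcripts of both genes could not be told apart. The estimated counts of Zic1 were whole numbers in 27 of 27 profiles. Zic4 held 27.3% as many counts as Zic1.

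Tfap2a (ENSMUSG00000021359, chr13:40811044-40829192, Tcfap2a in the annotation used) had its lowest level on day 16 (0.248 TPM) and its highest on day 10 (0.752 TPM). Its libraries held 21 to 67 reads, and the 95% Poisson interval of the day 16 count was 13.0 to 32.1 reads, which covers counting error only. Within day 10 the SD over profiles was 0.380 TPM. Neither fit passed (line log2 change 0.08, SE 0.65, edgeR adjusted p = 0.927, and curve adjusted p = 0.412). With an SE of this size, a change like those fitted for Alx4 (-0.37) or Twist2 (-0.44), which did not pass either, could not be resolved. Epithelial markers were close to 0 as well: Krt5, Krt14, Epcam, Cdh1 and Krt8 summed to at most 0.397 TPM on any day, with Krt14 at 0 in all libraries.

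**Figure D3:**
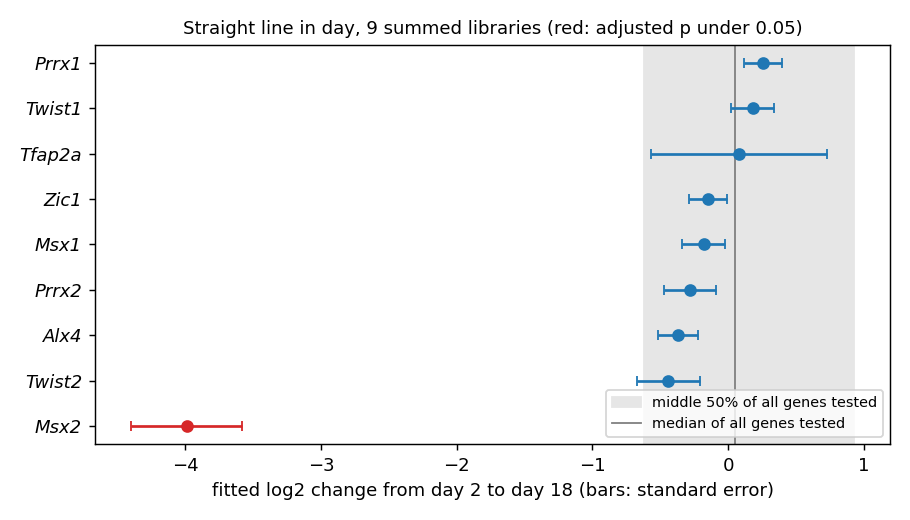
Fitted log2 change from day 2 to day 18 for the 9 genes, with bars for the standard error, over the middle 50% of all genes tested (grey band, -0.62 to 0.93) and their median (line, 0.05). Msx2 at -3.99 lies far left of the band, and the other 8 genes lie inside it, within 0.5 log2 of 0.

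In order of mean level over the days, Prrx1 (766 TPM) was followed by Prrx2 (67.3), Msx2 (50.6), Zic1 (46.5), Twist1 (32.1), Alx4 (18.1), Msx1 (12.9), Twist2 (5.44) and Tfap2a (0.521 TPM). The order was the same on 9 of 9 days for neighbours from Zic1 downwards and for Prrx1 over Prrx2. Prrx2 exceeded Msx2 on 6 of 9 days and Msx2 exceeded Zic1 on 4 of 9, so the place of Msx2 depends on the day. Over the days, 7 of the 9 genes had a ratio of highest to lowest day below 2.11, the median of the 13360 genes with at least 1 TPM. The exceptions were Msx2 (10.1) and Tfap2a (3.04). A fitted change within 0.5 log2 was found for 8 of the 9 genes and for 35.8% of all genes tested. The smooth curve passed for 4 of the 9 (Msx2, Twist1, Alx4 and Prrx1), against 57.5% of the 16256 genes tested.

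The genes most like each of the 9 in course were sought among 7585 genes with at least 10 TPM on average, by Pearson's r of log2(CPM + 0.5) over the 9 libraries. These values are descriptions, since the libraries are shared. Msx2 ran closest with Glipr2 (r = 0.997), Stip1 (0.996) and Memo1 (0.996), but 1541 of the 7585 genes exceeded 0.9 with it. For the flatter genes few did: 4 genes for Msx1, led by Jup (0.925), 4 for Twist1, led by 2500003M10Rik (0.960), and 14 for Twist2, led by Tbcd (0.977). Alx4 was closest to Pdpk1 (0.956), Prrx1 to Jmy (0.948), Zic1 to Clk4 (0.957), Prrx2 to Zbtb1 (0.864) and Tfap2a to Tmem55b (0.877). Among the 9 themselves, Msx1 and Twist2 were the most alike (0.89), and Twist2 and Prrx1 the most opposed (-0.87).

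Of 16 relatives from the same families, 8 had enough counts for the line, of which 1 rose, 2 fell and 5 did not pass. Over all genes tested 28.3% rose and 26.1% fell, the background for each list here. The median log2 change was -0.21, beside 0.05 over all genes tested and -0.18 over the 9 genes. By the smooth curve 3 of 9 tested relatives passed, beside 57.5% of all genes. Scx, a tendon factor related to Twist, fell from 9.69 to 2.51 TPM (log2 change -2.63, edgeR adjusted p = 0.000324), and Zic5 from 14.1 to 5.38 TPM (-1.32, adjusted p = 0.00109). Alx1, a paralog of Alx4 in the frontonasal region, rose from 3.96 to 8.48 TPM (0.86, adjusted p = 0.0290). Hand1, Hand2, Tcf15 and Tfap2d had 0 counts in all libraries, and Tfap2b, the most abundant AP-2 gene here, averaged 0.921 TPM.

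Among 31 other craniofacial transcription factors, 28 were tested, of which 15 rose, 6 fell and 7 did not pass, with a median of 0.73. Over all genes the same 28.3% rose and 26.1% fell. By the smooth curve 25 of the 28 passed, beside 57.5% of all genes. Eya1 rose from 6.32 to 40.9 TPM (log2 change 3.02, edgeR adjusted p = 0.000145), and Snai2, a factor of neural crest migration, from 57.9 to 147 TPM (1.82, adjusted p = 0.00111). Dlx2, which patterns the jaw, fell from 5.66 to 0.598 TPM (adjusted p = 0.00131).

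TWIST proteins act with E proteins and are opposed by ID proteins. Of 7 such genes, Tcf4 rose from 32.4 to 123 TPM (log2 change 1.65, edgeR adjusted p = 0.000740) and Id2 from 29.8 to 62.1 TPM (1.72, adjusted p = 0.0133). The other 5 did not pass the line. By the smooth curve 4 of the 7 passed, beside 57.5% of all genes. Tcf12, whose loss also causes coronal craniosynostosis, had a log2 change of -0.01 (SE 0.09, adjusted p = 0.911). Of 11 other genes of craniosynostosis, 4 rose, 1 fell and 6 did not pass the line, with a median of 0.42. By the smooth curve 10 of these 11 passed. Il11ra1, an interleukin receptor subunit, rose from 19.1 to 164 TPM (3.35, adjusted p = 0.000124), and Fgfr2, a receptor of sutural growth signals, from 81.5 to 143 TPM (1.46, adjusted p = 0.0106). Rab23, a regulator of hedgehog signalling, fell from 44.6 to 26.3 TPM (-0.94, adjusted p = 0.00103). Tcf12 and Gli3 are in 2 of these lists each.

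RNA levels of genes for BMP signalling, the input to the Msx genes, did not move in 1 direction, and signalling itself was not measured. Of 10 genes, 5 rose, 2 fell and 3 did not pass the line, with a median of 0.49. By the smooth curve 8 of the 10 passed, beside 57.5% of all genes. Among these was Nog, at 2.74, 0.206 and 2.08 TPM on days 2, 8 and 18 (edgeR curve adjusted p = 0.00444). The ligand gene Bmp4 rose from 19.1 to 164 TPM (log2 change 3.59, edgeR adjusted p = 0.000147), and Bmp2 from 0.710 to 3.23 TPM (2.51, adjusted p = 0.000402). Of the type I receptors, Bmpr1a rose from 32.2 to 55.2 TPM (0.72, adjusted p = 0.00136) and Bmpr1b fell from 6.39 to 0.331 TPM (-4.76, adjusted p = 2.80e-05). The signal transducer Smad1 fell from 24.0 to 15.3 TPM (-0.65, adjusted p = 0.0111), and Smad5 rose from 24.3 to 40.3 TPM (0.66, adjusted p = 0.00432). Msx2 thus fell while Bmp4 rose in the same libraries, and any link between them was not tested.

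**Figure D4:**
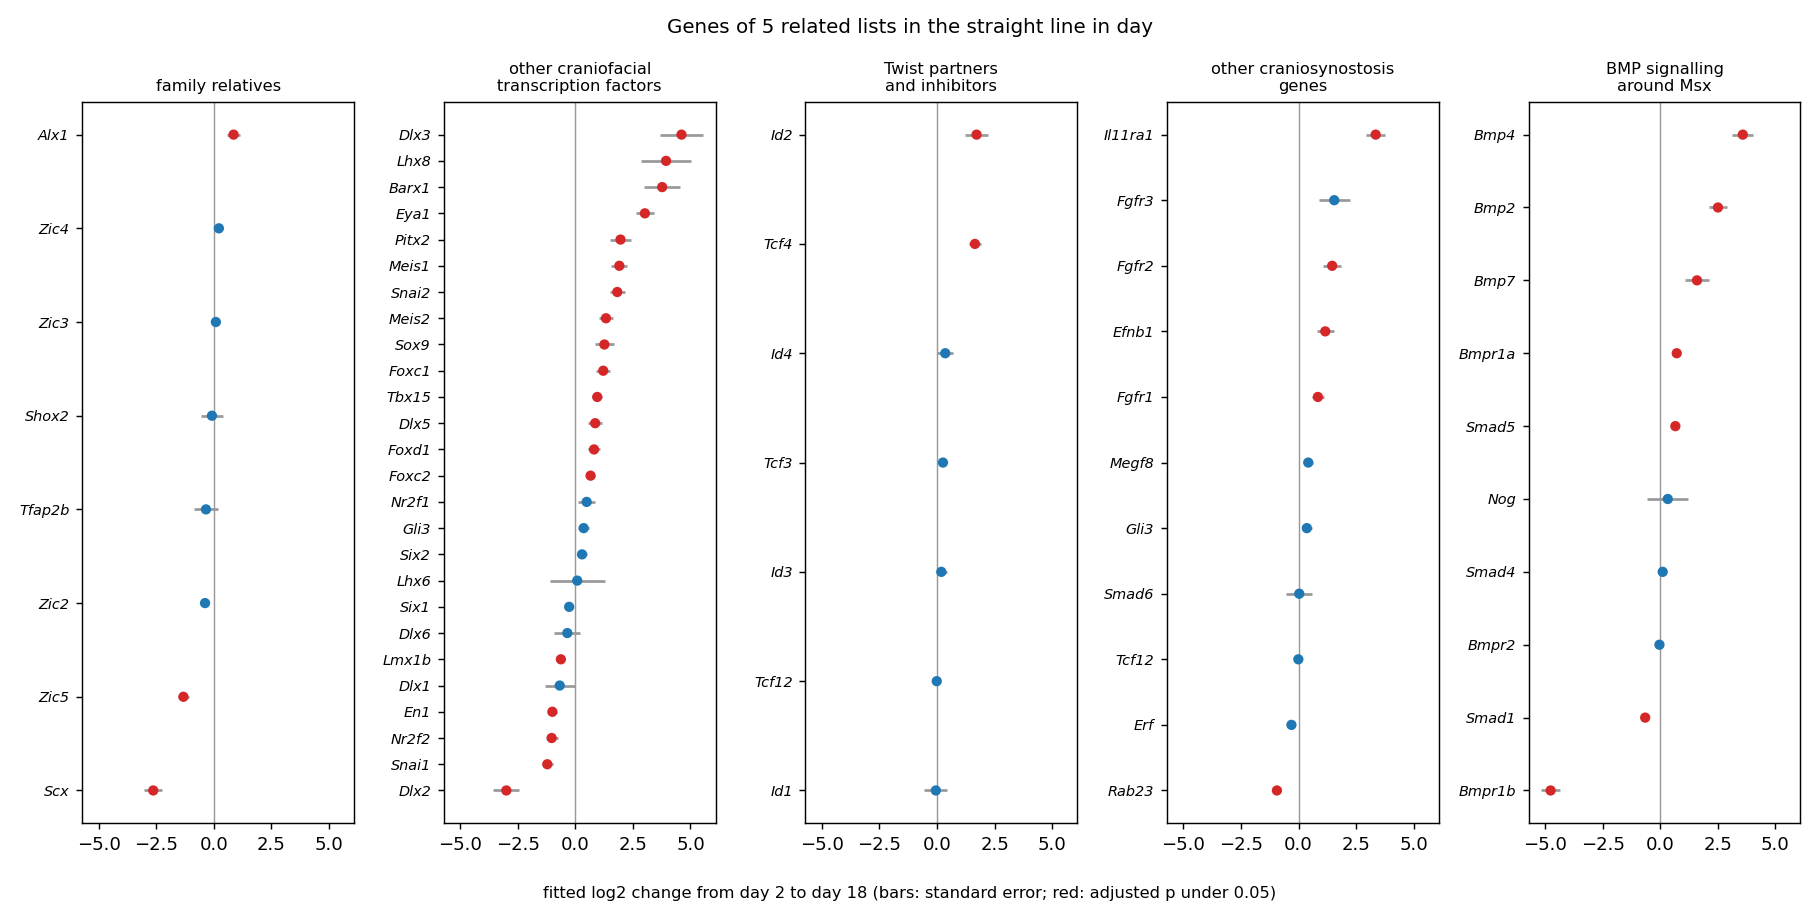
Fitted log2 change from day 2 to day 18 for tested genes of 5 related lists, 1 panel a list, with bars for the standard error and red for an adjusted p under 0.05. Of the 28 other craniofacial factors tested 2 are not drawn. In the BMP panel Bmp4 (3.59) and Bmpr1b (-4.76) lie at opposite ends.

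Other changes in the cultures ran beside the fall of Msx2. All 9 osteoblast markers were above 1 TPM on at least 1 day, and 6 of them rose (Bglap from 1.24 to 208 TPM), with a summed level, mostly of Col1a1 and Col1a2, of 3000 TPM at the start and 9293 TPM at the end. The other 3 (Sp7, Alpl and Spp1) did not pass the line but passed the smooth curve. Sp7, which encodes an osteoblast transcription factor, read 32.3 TPM on day 2, 2.77 TPM on day 8 and 10.6 TPM on day 18 (line log2 change -1.23, SE 0.83, edgeR adjusted p = 0.233, and curve adjusted p = 1.16e-05). Spp1, the osteopontin gene, peaked on day 6 at 1012 TPM and was lowest on day 10 at 285 TPM (line log2 change -1.17, SE 0.54, adjusted p = 0.0932, and curve adjusted p = 0.000421). The 5 genes of proliferating cells (Mki67, Top2a, Cdk1, Ccnb1 and Pcna) all fell, and their sum was 376, 218 and 126 TPM on days 8, 10 and 18. The first of these intervals is that of the steepest Msx2 step. From day 2 to day 8 that sum lay between 345 and 405 TPM, and Msx2 went from 129.9 to 54.4 TPM. Many other genes also had courses close to that of Msx2, as the correlations above show. Any link of the proliferation genes or the osteoblast markers to the fall of Msx2 was not tested.

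Of the macrophage markers 6 of 7 rose, and of the adipocyte markers 5 of 5. Summed macrophage markers read 24.1, 190.5 and 2014 TPM on days 2, 10 and 18, with Lyz2 the most abundant, and summed adipocyte markers 7.44, 19.8 and 407 TPM. Of 3 tested glial markers of the neural crest, 2 rose, S100b among them, and Erbb3 did not pass, and Sox10, which defines that lineage, was at most 0.195 TPM. Of the meningeal markers tested, Ptgds and Aldh1a2 rose and Crabp2 did not pass, with sums of 4.40 to 147 TPM, and Slc22a6 was at most 0.0945 TPM. Among chondrocyte markers 2 of 4 tested rose and 1 fell, with sums of 75.7 to 136 TPM. Among endothelial markers 2 of 3 tested rose and 1 fell, with sums of 3.24 to 12.1 TPM. The part of these cells in the courses of the 9 genes was not tested, and in bulk RNA fewer cells of a type and less RNA per cell cannot be told apart.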

How the data were processed

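RNA from 9 days was profiled, 3 profiles per day. Per the labels, cDNA was amplified with NuGEN Ovation and TruSeq libraries were built, and the submitters' processing notes name Bowtie 0.12.9, RSEM 1.2.8 and NCBIM37. The authors deposited expected counts, which RSEM estimated per gene and which were not normalized. The TPM deposited by the authors divide counts by length and sum to 1000000. The FPKM deposited by the authors served as an alternative. Profiles held 7331125 to 20888956 counts, and days 22470195 (day 10) to 62009157.

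Counts were summed by day, rounded and fitted with edgeR 4.0.16 in R 4.3.3 (quasi-likelihood test, factors from the upper quartile, filterByExpr at 10 counts, Benjamini-Hochberg over all genes tested). The scripts were tested on simulated data. Ratios used counts plus 0.5, and correlations log2(CPM + 0.5). The 9 genes, those of the lists and the 3 genes most like each of the 9 could be named. The genes and lists were chosen with earlier results of these data known. Symbols came from the GENCODE annotation of NCBIM37 (37205 of 37991 identifiers), with AP-2 genes matched by synonym. Alternatives included TMM, DESeq2 1.42.0, limma 3.58.1 on log2 TPM, other filters, unsummed profiles and leaving out each replicate and day. Some genes and sequences are not reported here.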

Additional observations from a re-analysis of the deposited data

How the results depend on the processing

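Of 366 recomputed values, 324 gave the same call or a count near the reported one. Of the rest, 18 passed where they had not, 5 turned direction and 19 counts moved further. A near count need not be equal: without day 4 the line passed for 30 genes of the related lists, against 38 as reported. The line passed for 2 of the 9 genes with a minimum count of 50 (60.8% of all genes) and for 1 to 2 when a replicate or day was left out (45.9% to 55.2% of all genes). The second gene was Alx4 with that filter and without replicate 3, day 8 or day 18, Zic1 without day 2 and Prrx2 without day 4 (-0.44, against 0.04 without day 2). The smooth curve passed for 2 genes with TMM factors (58.0% of all genes) or no filter (40.2%), and for 2 to 5 with a replicate or day left out (46.1% to 58.6%). Twist1 over Twist2 changed by 1.11 without days 2 and 18 (exact permutation, adjusted p = 0.0494) and by 0.49 to 0.94 with a replicate or day left out. Prrx1 over Prrx2 changed by 0.16 without days 2 and 18, and ranged from 0.34 to 0.72 with a replicate or day left out, passing without day 4 and without replicate 2 (0.53). The direction of Tfap2a turned for days 2 to 6 against 14 to 18 (-0.26), without replicate 3 (-0.22), without day 2 (-0.42) and without day 18 (-0.39), and was 0.52 without day 16. Prrx2 turned without day 2. Tfap2a reached 0.5 TPM on 5 days and Twist2 5 TPM on 6 days. The causes were not tested.

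Replicate numbers coincide with lanes, and same-numbered profiles did not deviate together (mean r = 0.00568, range -0.0666 to 0.058), so they do not pair samples. With the 27 profiles taken singly and a replicate block, the line passed for 5 genes (76.4% of all genes) and the curve for 7 (87.8%), and without the block for 5 (77.7%) and 9 (88.7%). There the lanes of 1 library count as replicates. Tfap2a and Twist2 have the fewest reads of the 9 genes, 341 and 1390 in all.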
